A study of Homo sapiens with 16 samples.

Results

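The 10 genes described here were chosen by name as classic NRF2 target genes and detoxifying dehydrogenases, with earlier results of these data known. All 10 were found among the 20356 genes of the count table. They are the aldehyde dehydrogenases ALDH3A1 and ALDH1A1, the aldo-keto reductases AKR1C1 and AKR1C3, the quinone reductase NQO1, the glutathione synthesis genes GCLM, GCLC and SLC7A11, the heme-degrading enzyme HMOX1 and the thioredoxin reductase TXNRD1. The study asked what DDX4, an RNA helicase of the germline, contributes to the cancer-related properties of PC3 cells, a widely used line from a human prostate cancer. RNA was sequenced from 4 groups of 4 libraries: DDX4-null xenograft tumors, control xenograft tumors, DDX4-null monolayer cultures and control monolayer cultures. Separate cultures or animals are not named in the labels, and the spread between libraries that the p-values rest on may therefore be technical. A xenograft tumor grows from human cells placed in an animal. The host species, the way DDX4 was disrupted, whether a line was 1 clone and whether tumors were pooled are not stated in the labels.

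NRF2, encoded by NFE2L2, is a transcription factor that the adaptor KEAP1 marks for degradation in unstressed cells. Oxidants and electrophiles modify KEAP1, NRF2 then accumulates, pairs with a small MAF protein and binds antioxidant response elements in front of genes for reductases, glutathione synthesis and NADPH supply. BACH1 occupies the same elements and represses some of these genes, above all HMOX1. In prostate cancer AKR1C3 is best known for making androgens from weaker precursors, and ALDH1A1 and ALDH3A1 oxidise reactive aldehydes.

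Library totals ran from 12204254 to 25443952 counts, and levels are given as TMM-scaled CPM, that is, counts per 1000000 reads after scaling that balances library composition. A group with no count of a gene was set at 3 counts over its 4 libraries for a fold change. Keratins, CD44 and vimentin, known in PC3, were present in all 4 groups, with summed PC3 and epithelial markers of 3940 to 6170 CPM in DDX4-null tumors, 3220 to 3560 CPM in control tumors, 2890 to 3370 CPM in DDX4-null monolayers and 1950 to 2090 CPM in control monolayers. The 6170 CPM were in DDX4-null tumor 1, where vimentin alone had 3720 CPM, against 2200 to 2560 CPM in the other DDX4-null tumors. The sum therefore does not measure the share of PC3 cells in a tumor. The prostate luminal protease gene KLK2 had 0 counts in every library. DDX4 itself had 11, 13, 7 and 10 counts summed over the DDX4-null tumors, control tumors, DDX4-null monolayers and control monolayers, so its RNA level was too low to check the labels, and DDX4 status cannot be told apart from other differences between the lines (exact two-sided permutation p = 0.886 in tumors and 0.6 in monolayers, with 0.0286 the smallest p that 4 against 4 allows).

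DDX4-null tumor 1 stood apart from the other libraries. Its summed fibroblast markers reached 11000 CPM, against 1660 to 1910 CPM in the other 3 DDX4-null tumors and 1380 to 1880 CPM in control tumors. Its summed leukocyte and macrophage markers were 71.0 CPM, against 13.3 to 36.3 CPM in the other 3. Where a value of the 10 genes moved by more than 1.5 times, or changed direction or call, without this library, both values are given.

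TXNRD1 dominated the RNA of these genes in every library. Its reads made up 75.3% to 79.2% of the summed CPM of the 10 genes in DDX4-null tumors, 79.6% to 81.7% in control tumors, 61.9% to 65.4% in DDX4-null monolayers and 72.2% to 76.0% in control monolayers. The sum itself was 986.5 to 1398 CPM in DDX4-null tumors, 1339 to 1514 CPM in control tumors, 1445 to 1776 CPM in DDX4-null monolayers and 2600 to 2949 CPM in control monolayers. Per kilobase of exon (GENCODE v29), mean levels in control monolayers were ordered TXNRD1 (308 CPM per kb), NQO1 (66.2), SLC7A11 (28.0), HMOX1 (16.6), GCLC (11.3), ALDH3A1 (11.0), AKR1C3 (5.51), GCLM (4.64), AKR1C1 (1.47) and ALDH1A1, which had 0 counts. Of these neighbours GCLC and ALDH3A1, and AKR1C3 and GCLM, differed by less than the spread between replicates. In control tumors the order began with TXNRD1 (171), NQO1 (28.3), HMOX1 (7.75), GCLC (7.17), SLC7A11 (6.22) and GCLM (6.11). Among the last 4 of these, from HMOX1 to GCLM, neighbours did not differ beyond that spread.

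**Figure D1:**
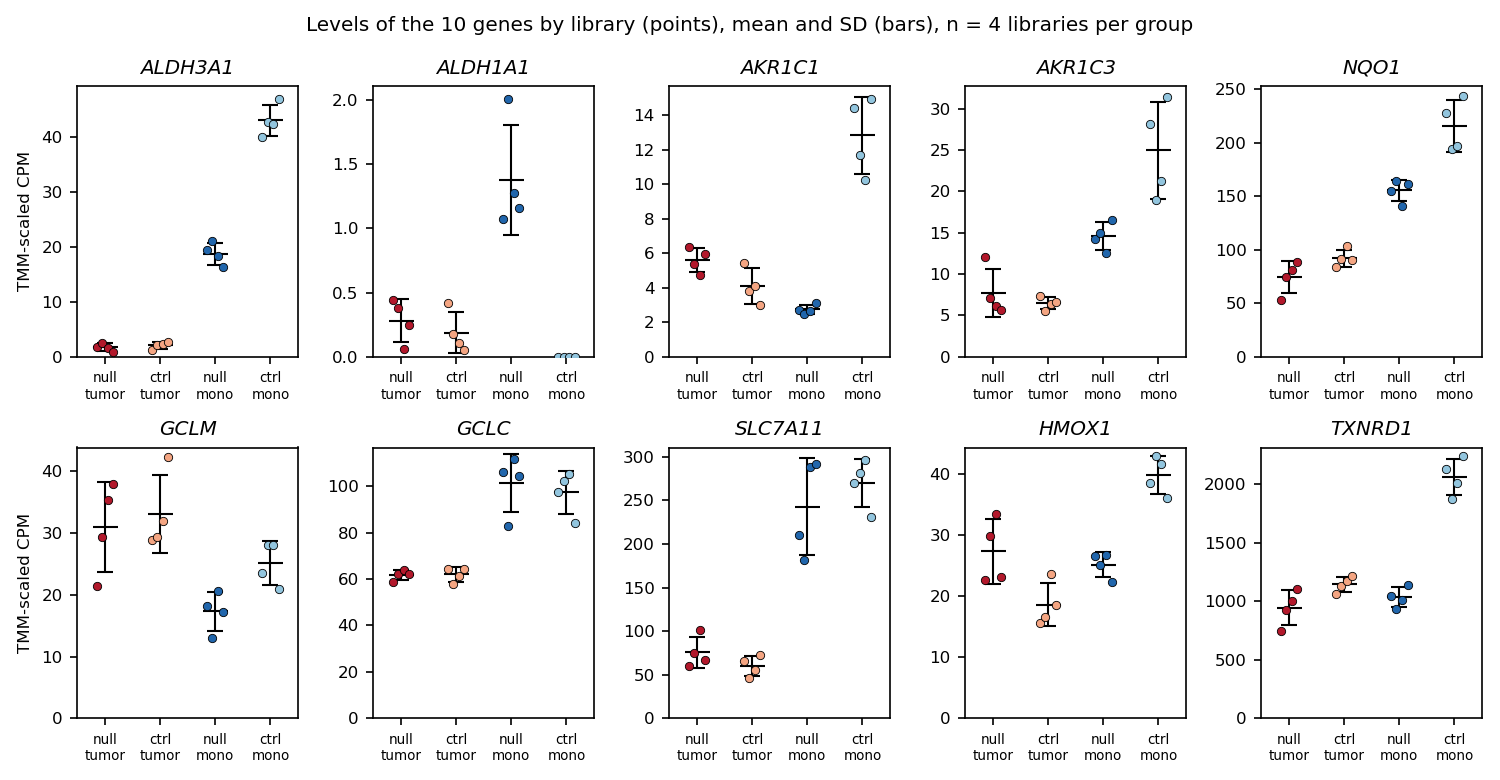
Level of each of the 10 genes in TMM-scaled CPM (vertical axes, each from 0) in the 4 groups, left to right DDX4-null tumors, control tumors, DDX4-null monolayers and control monolayers. Points are libraries, horizontal ticks with bars are means with SD, n = 4 libraries per group; TXNRD1 lies between 749 and 2240 CPM, and ALDH1A1 is at 0 in all 4 control monolayers.

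The sequence that NRF2 binds could be looked for in the promoters of 7 of the 10 genes, which have 9 promoters in the RefSeq table (GRCh38.p14, each 250 bases before to 50 bases after a start site). The core antioxidant response element, TGAC followed by 3 bases of any kind and GC, on either strand, was present in 3 promoters, the only one of GCLM and both of TXNRD1, against 13.3% of all 35116 promoters of that length. The AP-1 motif, TGACTCA or its reverse complement TGAGTCA, which overlaps some antioxidant response elements, was in 0 of the 9, against 4.95% of all promoters. The 3 stretches are shown because they are the matches among these genes, from 120 bases before the start site to the start base, with the match in capitals. GCLM lies on the minus strand (chr1:93909430-93909550) and its match, TGACTAAGC read on the opposite strand, ends 26 bases before the start. TXNRD1 lies on the plus strand. Its upstream promoter (chr12:104215659-104215779) holds TGACTTCGC, ending 91 bases before the start, and TGACGGAGC on the opposite strand, reaching the start base. Its downstream promoter (chr12:104286912-104287032) holds TGACAAAGC on the opposite strand, ending 94 bases before the start.
GCLM: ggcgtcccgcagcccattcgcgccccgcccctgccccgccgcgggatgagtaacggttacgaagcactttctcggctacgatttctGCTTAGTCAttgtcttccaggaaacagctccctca
TXNRD1 upstream promoter: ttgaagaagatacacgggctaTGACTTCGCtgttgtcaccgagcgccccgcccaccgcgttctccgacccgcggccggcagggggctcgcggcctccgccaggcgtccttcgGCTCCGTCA
TXNRD1 downstream promoter: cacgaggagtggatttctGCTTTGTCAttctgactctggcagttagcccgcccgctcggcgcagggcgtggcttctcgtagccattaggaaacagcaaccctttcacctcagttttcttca
A match is a string of letters in this window and was not tested as a binding site, and elements farther from the start lie outside it.

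Most of the 10 genes were lower in DDX4-null than in control monolayers. With edgeR's quasi-likelihood test and Benjamini-Hochberg adjustment over 13006 genes at 0.05, 7 fell (ALDH3A1, AKR1C1, AKR1C3, NQO1, GCLM, HMOX1 and TXNRD1), ALDH1A1 rose, and GCLC and SLC7A11 did not pass. In this comparison 67.3% of all tested genes passed, 35.0% higher and 32.3% lower, so a pass alone was common. With library totals in place of TMM, 57.6% of these calls were higher, against 52% with TMM. The median of all genes was then 0.09 in place of 0.02. How many of all tested genes had ranges without overlap was not counted in any comparison. The median log2 change was -0.60 over the 10 genes and 0.02 over all tested genes. As the 10 were chosen with earlier results of these data known, these medians describe the set and test nothing.

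The 2 aldehyde dehydrogenases went opposite ways. ALDH3A1, which oxidises aromatic and lipid-derived aldehydes, had 19.4, 21.0, 18.3 and 16.3 CPM in DDX4-null monolayers, against 40.0, 42.6, 42.4 and 47.0 CPM in control monolayers. All DDX4-null libraries lay below all control libraries. Its log2 change was -1.20 ± 0.11 (SE; edgeR adjusted p = 8.5e-09), a level 2.29-fold lower. ALDH1A1, a retinaldehyde dehydrogenase used as a marker of stem-like cells, had 1.07, 2.01, 1.27 and 1.16 CPM in DDX4-null monolayers and 0 counts in each of the 4 control monolayers. That is 100 counts over the DDX4-null group, at least 28.3-fold higher when the control group is set at 3 counts in all (edgeR adjusted p = 2.1e-07), and the lower 95% counting limit of the ratio was 22.6.

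AKR1C1, which reduces progesterone and many other ketones and aldehydes, showed the largest fall of the 10 genes. It had 2.74, 2.48, 2.67 and 3.11 CPM in DDX4-null monolayers, against 14.4, 11.7, 10.3 and 14.9 CPM in control monolayers, without overlap. The log2 change was -2.21 ± 0.16, or 4.63-fold lower (edgeR adjusted p = 3.1e-10). AKR1C3, its neighbour on chromosome 10, had 14.2, 15.01, 12.6 and 16.6 CPM in DDX4-null monolayers, against 28.2, 19.0, 21.2 and 31.4 CPM in control monolayers. The groups did not overlap, although the lowest control library was close to the highest DDX4-null one. Its log2 change was -0.77 ± 0.15 (edgeR adjusted p = 1.1e-04). Reads of AKR1C1 can be confused with those of AKR1C2: of the 50-base windows in AKR1C1 transcripts 28.3% also occur in AKR1C2 and 1.53% in AKR1C3. AKR1C2 held 15 counts over the DDX4-null monolayers and 68 over the control monolayers, and AKR1C1 with AKR1C2 counts added changed by -2.23.

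NQO1, which reduces quinones and is a much used readout of NRF2 activity, had 155, 164, 141 and 161 CPM in DDX4-null monolayers, against 228, 194, 197 and 244 CPM in control monolayers. Every DDX4-null library was below every control library, and the fall was modest, at -0.47 ± 0.10 on the log2 scale (edgeR adjusted p = 3.0e-04).

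Of the 3 glutathione synthesis genes 1 passed. GCLM, the modifier subunit of glutamate-cysteine ligase, had 18.3, 13.1, 20.6 and 17.2 CPM in DDX4-null monolayers, against 23.6, 28.0, 28.1 and 20.9 CPM in control monolayers. The groups were separate but close, and the log2 change was -0.54 ± 0.14 (edgeR adjusted p = 0.00207). GCLC, the catalytic subunit of the same enzyme, had 106, 83.1, 112 and 104 CPM in DDX4-null monolayers, against 97.7, 102, 105 and 84.0 CPM in control monolayers, and the groups overlapped. Its log2 change was 0.06 with a 95% interval of -0.17 to 0.29 (edgeR adjusted p = 0.654). SLC7A11, the cystine importer that supplies the cysteine for glutathione, had 210, 181, 288 and 291 CPM in DDX4-null monolayers, against 270, 281, 297 and 231 CPM in control monolayers. These groups overlapped as well, with an interval of -0.44 to 0.14 around -0.15 (edgeR adjusted p = 0.339). With the median change of its chromosome taken out, SLC7A11 passed at -0.33 (edgeR adjusted p = 0.0426).

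HMOX1, which opens heme and releases iron and carbon monoxide, had 26.6, 25.1, 26.7 and 22.4 CPM in DDX4-null monolayers, against 38.6, 43.0, 41.7 and 36.0 CPM in control monolayers. There was no overlap, and the log2 change was -0.66 ± 0.10 (edgeR adjusted p = 1.5e-05). TXNRD1, the selenoprotein that keeps cytosolic thioredoxin reduced, had 1048, 938, 1013 and 1142 CPM in DDX4-null monolayers, against 2132, 1877, 2008 and 2240 CPM in control monolayers. The ranges were far apart, and the log2 change was -0.995 ± 0.10, or 1.99-fold lower (edgeR adjusted p = 8.2e-08).

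Whole chromosomes differed between the DDX4-null and control monolayers, with an SD of 0.303 over the chromosome medians of log2 change, against 0.051 in tumors. The medians of the chromosomes that carry the 10 genes ran from -0.11 (chromosomes 1 and 12, with GCLM and TXNRD1) to 0.29 (chromosome 22, with HMOX1). With these medians taken out, all 7 falls and the rise of ALDH1A1 still passed.

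In tumors none of the 9 genes tested passed. ALDH1A1 was below the filter on low counts. The background was also low, with 2.09% of 12942 genes passing in edgeR, 0.981% higher and 1.10% lower. With library totals in place of TMM, 36.6% of these calls were higher, against 47.0% with TMM. At an unadjusted edgeR p under 0.05, 4 of the 9 genes differed (AKR1C1, NQO1, HMOX1 and TXNRD1). The share of all tested genes at this unadjusted threshold was not counted, so the 4 cannot be set against the 2.09%. That share was well above 2.09%, as NQO1, with an unadjusted edgeR p of 0.0456, had an adjusted p of 0.225. DESeq2 called 1 of the 9, HMOX1. The median log2 change was -0.01 over the 9 genes and 0 over all tested genes.

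HMOX1 came nearest to the threshold, and in the direction opposite to monolayers. It had 22.7, 29.9, 33.6 and 23.2 CPM in DDX4-null tumors, against 15.6, 16.7, 23.7 and 18.7 CPM in control tumors. The highest control tumor lay within the DDX4-null range. The log2 change was 0.55 with a 95% interval of 0.20 to 0.90 (edgeR adjusted p = 0.1). It passed with DESeq2 (adjusted p = 0.0286) and in the edgeR model of all 16 libraries (adjusted p = 0.0206). Without DDX4-null tumor 1 the change was 0.63 (edgeR adjusted p = 0.0619). Macrophages are known to express HMOX1: summed leukocyte and macrophage markers, 8 genes, were 13.3 to 71.0 CPM in DDX4-null tumors, with CD3E at 0 counts, and 14.6 to 32.0 CPM in control tumors. Summed erythroid markers were 3.80 to 15.7 CPM in DDX4-null tumors and 2.76 to 6.59 CPM in control tumors. The part of these cells in the HMOX1 value was not tested, and in bulk tissue fewer cells of a type cannot be told apart from less RNA per cell.

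The aldo-keto reductases had somewhat higher means in DDX4-null tumors. AKR1C1 had 6.37, 5.41, 4.75 and 5.98 CPM in DDX4-null tumors, against 5.47, 3.82, 4.13 and 2.99 CPM in control tumors. The ranges overlapped through control tumor 1, and the log2 change was 0.46 with an interval of 0.01 to 0.90 (edgeR adjusted p = 0.224). AKR1C3 had 12.03, 7.08, 6.13 and 5.61 CPM in DDX4-null tumors, against 7.36, 5.53, 6.43 and 6.69 CPM in control tumors. Its high mean came from DDX4-null tumor 1: the log2 change was 0.23 with all libraries (edgeR adjusted p = 0.583) and -0.04 without that tumor (adjusted p = 0.914).

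NQO1 had 53.5, 74.3, 81.1 and 88.2 CPM in DDX4-null tumors, against 83.7, 91.4, 103 and 90.1 CPM in control tumors. TXNRD1 had 749, 924, 1002 and 1107 CPM in DDX4-null tumors, against 1066, 1130, 1175 and 1213 CPM in control tumors. For both genes the lowest value was in DDX4-null tumor 1 and the highest DDX4-null tumor reached into the control range. The log2 changes were -0.31 (interval -0.61 to -0.01, edgeR adjusted p = 0.225) for NQO1 and -0.28 (interval -0.55 to -0.01, adjusted p = 0.222) for TXNRD1. Without DDX4-null tumor 1 they were -0.18 for both.

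The glutathione genes overlapped between DDX4-null and control tumors. GCLM had 21.5, 29.4, 35.3 and 37.9 CPM in DDX4-null tumors, against 28.8, 29.4, 31.9 and 42.4 CPM in control tumors, a log2 change of -0.09 (interval -0.47 to 0.29, edgeR adjusted p = 0.788) that was 0.05 without DDX4-null tumor 1. GCLC had 58.7, 62.1, 64.0 and 62.3 CPM in DDX4-null tumors, against 64.5, 57.9, 61.3 and 64.5 CPM in control tumors. This was the narrowest interval of the 9 genes, -0.17 to 0.16 around -0.007 (edgeR adjusted p = 0.967), and the change was 0.024 without DDX4-null tumor 1. SLC7A11 had 60.5, 74.7, 101 and 67.1 CPM in DDX4-null tumors, against 65.5, 46.4, 55.5 and 72.8 CPM in control tumors, with an interval of -0.03 to 0.71 around 0.34 (edgeR adjusted p = 0.266).

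The aldehyde dehydrogenases were near the lower end of what tumors could show. ALDH3A1 had 1.86, 2.595, 1.55 and 0.872 CPM in DDX4-null tumors, against 1.26, 2.24, 2.30 and 2.74 CPM in control tumors, with overlap and a wide interval of -1.06 to 0.41 around -0.32 (edgeR adjusted p = 0.598). ALDH1A1 had 17 counts over the 4 DDX4-null tumors and 13 over the 4 control tumors. Their ratio was 1.62 with a 95% counting interval of 0.74 to 3.62, which covers counting error only, so no difference was detectable at this depth.

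**Figure D2:**
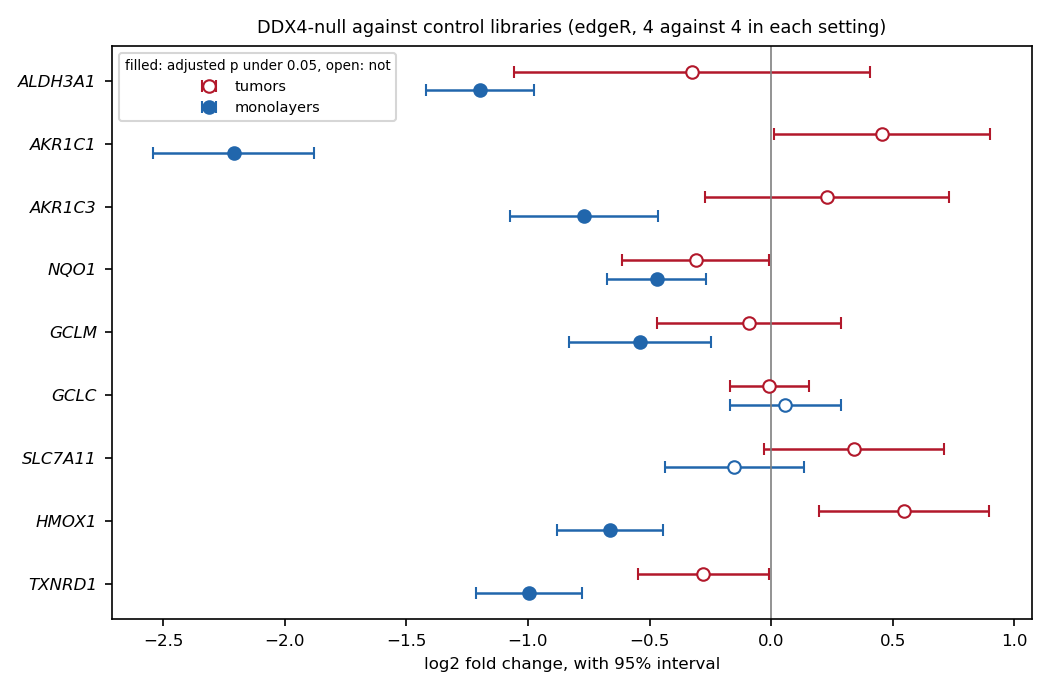
Log2 fold change of DDX4-null against control libraries (horizontal axis) with its 95% interval for 9 genes, in tumors and in monolayers, from edgeR with 4 against 4 libraries in each setting; ALDH1A1, with 0 counts in control monolayers, is left out. Filled points passed at an adjusted p under 0.05; 7 genes pass below 0 in monolayers, AKR1C1 lowest at -2.21, and in tumors all 9 points are open, HMOX1 highest at 0.55.

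The difference between the 2 settings was tested directly in a model of all 16 libraries, as the log2 change of DDX4-null against control tumors minus that in monolayers. Of the 10 genes, 5 had a positive difference (ALDH3A1, AKR1C1, AKR1C3, HMOX1 and TXNRD1), ALDH1A1 had a negative one and 4 did not pass. In edgeR 52.8% of 13603 genes passed this test, 26.0% more positive and 26.8% more negative, and with library totals 38.2% of the calls were more positive, against 49.2% with TMM. The median difference was 0.61 over the 10 genes and -0.02 over all tested genes, where library totals gave -0.16 over all genes. AKR1C1 had the largest measured difference, 2.67 ± 0.26 (edgeR adjusted p = 4.8e-08), followed by HMOX1 at 1.21 ± 0.19 (adjusted p = 2.5e-05). AKR1C3 differed by 0.99 ± 0.28 (adjusted p = 0.00545), TXNRD1 by 0.72 ± 0.16 (adjusted p = 6.7e-04) and ALDH3A1 by 0.86 ± 0.30 (adjusted p = 0.0192). The ALDH3A1 difference was 0.55 without DDX4-null tumor 2 and no longer passed (edgeR adjusted p = 0.124). ALDH1A1 had a fitted difference of -6.93 (edgeR adjusted p = 4.5e-04), whose size depends on a prior count that edgeR uses for the control monolayers.

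For the other 4 genes the change between DDX4-null and control libraries was not shown to differ between settings. The difference was 0.16 for NQO1 (interval -0.20 to 0.52, and 0.31 without DDX4-null tumor 1), 0.45 for GCLM (interval -0.05 to 0.94), -0.06 for GCLC (interval -0.34 to 0.22, and -0.02 without that tumor) and 0.49 for SLC7A11 (interval -0.004 to 0.991). SLC7A11 passed with chromosome medians taken out, at 0.65 (edgeR adjusted p = 0.0306). GCLM and SLC7A11 also passed when 1 library was left out: without DDX4-null tumor 1 their differences were 0.61 each (edgeR adjusted p = 0.0188 for GCLM and 0.0302 for SLC7A11), and without control tumor 4 they were 0.59 and 0.60 (adjusted p = 0.0382 for GCLM and 0.0456 for SLC7A11).

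Most of the genes were lower in tumors than in monolayers. In control tumors against control monolayers 8 of the 9 genes tested fell and GCLM rose, where 64.9% of 12858 genes passed in edgeR, 33.9% higher and 31.0% lower. With library totals 66.0% of these calls were higher, against 52.2% with TMM, and the median of all genes was 0.19 in place of 0.02. The median over the 9 genes was -1.22. This comparison shares the control monolayers and the control tumors with the genotype comparisons.

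ALDH3A1 fell most. It averaged 2.13 ± 0.622 CPM in control tumors and 43.0 ± 2.89 CPM in control monolayers (SD, n = 4 each), a log2 change of -4.29 ± 0.15, or 19.5-fold lower (edgeR adjusted p = 3.8e-13). SLC7A11 averaged 60.0 ± 11.5 CPM in control tumors and 270 ± 27.8 CPM in control monolayers, 4.48-fold lower (edgeR adjusted p = 1.8e-10). Both were separate in every library. AKR1C3 was 3.83-fold lower, AKR1C1 3.14-fold, NQO1 2.33-fold and HMOX1 2.11-fold. TXNRD1 was 1.79-fold lower and GCLC 1.56-fold, with GCLC at 62.0 ± 3.14 CPM in control tumors and 97.3 ± 9.44 CPM in control monolayers. The 8 falls kept to separate ranges in tumors and monolayers, but how many of all tested genes did so was not counted. GCLM, against the direction of the rest, had a mean of 33.1 ± 6.32 CPM in control tumors and 25.2 ± 3.53 CPM in control monolayers. Its log2 change was 0.41 ± 0.13 (edgeR adjusted p = 0.0121), and without control tumor 4 it was 0.26 and no longer passed (adjusted p = 0.0554). ALDH1A1 had 13 counts over the control tumors and 0 over the control monolayers, and the lower 95% counting limit of their ratio was 2.43.

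Most directions were kept in DDX4-null tumors against DDX4-null monolayers, but AKR1C1 rose where it had fallen in the control libraries. Of the 10 genes 6 fell (ALDH3A1, ALDH1A1, AKR1C3, NQO1, GCLC and SLC7A11), AKR1C1 and GCLM rose, and HMOX1 and TXNRD1 did not pass, where 69.8% of 13277 genes passed in edgeR, 34.6% higher and 35.3% lower. The median log2 change was -0.81, against 0 over all tested genes. AKR1C1 averaged 5.63 ± 0.704 CPM in DDX4-null tumors and 2.75 ± 0.261 CPM in DDX4-null monolayers, a log2 change of 1.04 ± 0.18 (edgeR adjusted p = 1.9e-04). GCLM averaged 31.0 ± 7.27 CPM in DDX4-null tumors and 17.3 ± 3.16 CPM in DDX4-null monolayers, or 0.86 ± 0.18 (adjusted p = 7.1e-04). ALDH3A1 again fell most, to 1.72 ± 0.715 CPM in DDX4-null tumors, against 18.8 ± 2.01 CPM in DDX4-null monolayers, which is 10.7-fold lower (edgeR adjusted p = 4.0e-08).

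HMOX1 averaged 27.4 ± 5.27 CPM in DDX4-null tumors and 25.2 ± 2.00 CPM in DDX4-null monolayers, with overlapping libraries and a change of 0.14 (interval -0.16 to 0.43, edgeR adjusted p = 0.381), which was 0.22 without DDX4-null tumor 1 (adjusted p = 0.14). With chromosome medians taken out HMOX1 passed at 0.34 (adjusted p = 0.0427). TXNRD1 averaged 945 ± 151 CPM in DDX4-null tumors and 1035 ± 84.8 CPM in DDX4-null monolayers, also with overlap, and its change was -0.12 (interval -0.40 to 0.17, adjusted p = 0.448). Without DDX4-null tumor 1 the TXNRD1 change was -0.011 (edgeR adjusted p = 0.94). SLC7A11 (-1.66 ± 0.19), NQO1 (-1.05 ± 0.14), AKR1C3 (-0.93 ± 0.21) and GCLC (-0.70 ± 0.11) fell with separate ranges. ALDH1A1 fell by 2.30 on the log2 scale, from counts of 17 in all in the tumors against 100 in the monolayers.

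Summed markers of other cell types also differed between tumors and monolayers. All 7 fibroblast markers had counts in both tumor groups, with sums of 1660 to 11000 CPM in DDX4-null tumors, 1380 to 1880 CPM in control tumors, 45.2 to 58.2 CPM in DDX4-null monolayers and 24.0 to 31.6 CPM in control monolayers. Summed leukocyte and macrophage markers were 14.6 to 32.0 CPM in control tumors and 0.994 to 1.94 CPM in control monolayers. Skeletal muscle markers, 8 genes, were 6.81 to 337 CPM in DDX4-null tumors, 112 to 383 CPM in control tumors, 0.849 to 1.36 CPM in DDX4-null monolayers and 1.10 to 1.29 CPM in control monolayers. Adipocyte markers, 5 genes, were lower in tumors, at 2.80 to 5.03 CPM in DDX4-null tumors, 2.66 to 3.94 CPM in control tumors, 38.7 to 54.4 CPM in DDX4-null monolayers and 32.2 to 51.1 CPM in control monolayers. Hepatocyte markers, 6 genes, were 0.973 to 3.14 CPM in DDX4-null tumors, 0.561 to 1.17 CPM in control tumors, 37.4 to 54.7 CPM in DDX4-null monolayers and 1.42 to 1.87 CPM in control monolayers. In DDX4-null monolayers the adipocyte sum was mostly FABP4, at 37.3 to 52.7 CPM, and the hepatocyte sum mostly SERPINA1, at 36.5 to 53.6 CPM. FABP4 had 30.4 to 47.4 CPM in control monolayers and 1.12 to 4.05 CPM over the tumors of both groups. A sum led by a single gene does not show that the cell type was present. The part of other cell types in the changes between tumors and monolayers was not tested.

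**Figure D3:**
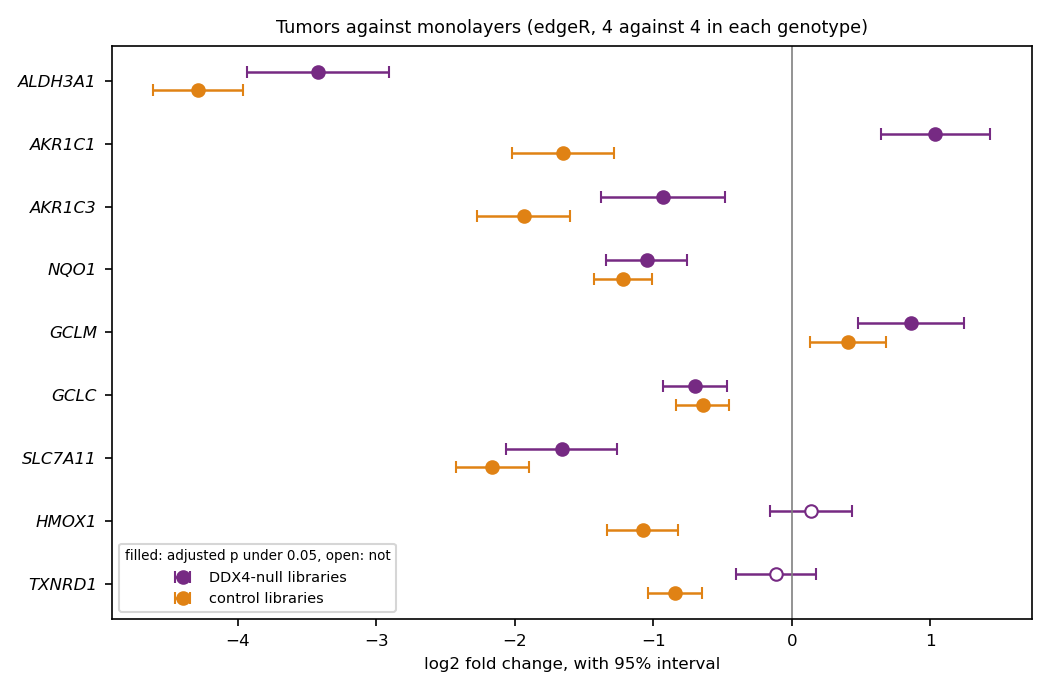
Log2 fold change of tumors against monolayers (horizontal axis) with its 95% interval for 9 genes, in DDX4-null and in control libraries, from edgeR with 4 against 4 libraries in each genotype. Filled points passed at an adjusted p under 0.05; ALDH3A1 lies farthest left at -3.42 and -4.29, GCLM is right of 0 in both, and AKR1C1 is at 1.04 in DDX4-null and -1.65 in control libraries.

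The 10 genes had several patterns over the 4 groups. ALDH3A1, AKR1C3, NQO1 and SLC7A11 had their highest mean in control monolayers and their next highest in DDX4-null monolayers. For SLC7A11 these 2 groups overlapped, as they did for GCLC, whose mean was marginally higher in DDX4-null monolayers. TXNRD1 and HMOX1 were highest in control monolayers, with no overlap with the other 3 groups. Below that, TXNRD1 in DDX4-null monolayers overlapped with both tumor groups, and HMOX1 in DDX4-null monolayers did too. AKR1C1 was highest in control monolayers and had its lowest mean in DDX4-null monolayers, which overlapped with control tumors. GCLM had its lowest mean in DDX4-null monolayers, below every library of the other 3 groups, and ALDH1A1 its highest mean there.

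**Figure D4:**
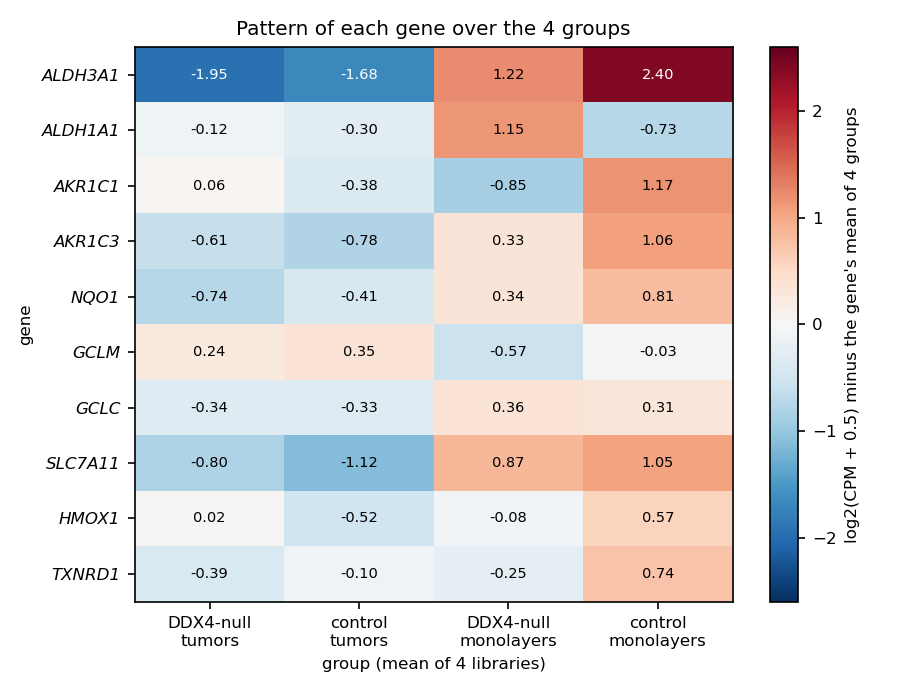
Mean log2(CPM + 0.5) of each gene in each of the 4 groups after its mean over the groups is taken out, as color and number, with n = 4 libraries per group. ALDH3A1 has the widest range, from -1.95 in DDX4-null tumors to 2.40 in control monolayers, and GCLC the narrowest, from -0.34 to 0.36.

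The genes whose 4 group means ran most like those of each member were found among 12319 genes with a symbol and a mean of at least 1 CPM, by the root mean square difference of the centred log2 means. INHBA was nearest to ALDH3A1 (0.15), HOXA9 to AKR1C1 (0.08), GARS1 to AKR1C3 (0.02), HNF4G to NQO1 (0.03), RIC8B to GCLM (0.01), SGTB to GCLC (0.02), CDKN2B to SLC7A11 (0.04), RGL1 to HMOX1 (0.04) and ALG14 to TXNRD1 (0.04). EFNB3 was nearest to ALDH1A1 (0.06). With only 4 group means a small difference is easily found among so many genes. The nearest genes to AKR1C3 also held SLC1A5 (0.05), the glutamine importer.

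Regulators of the pathway were mixed in monolayers. Of 16 genes of the KEAP1-NRF2 system, 3 rose and 7 fell in DDX4-null monolayers, with a median log2 change of -0.10. Counts of this and the next lists stand beside 35.0% of all tested genes that rose and 32.3% that fell, and no list was tested against another. The lists share genes, such as FTH1, FTL, BLVRA and BLVRB among NRF2 targets and heme and iron genes, so their counts are not independent. BACH2, a repressor related to BACH1, averaged 15.1 ± 0.969 CPM in DDX4-null monolayers and 2.83 ± 0.247 CPM in control monolayers, a change of 2.41 ± 0.14 (edgeR adjusted p = 1.3e-11). The small MAF partner genes MAFG (-0.70 ± 0.10) and MAFK (-0.97 ± 0.14) fell, and MAFK, on chromosome 7, was at -0.25 and did not pass with chromosome medians taken out (edgeR adjusted p = 0.119). NFE2L2 and KEAP1 were picked out after their values were seen. NFE2L2 averaged 126 ± 8.83 CPM in DDX4-null monolayers and 156 ± 13.9 CPM in control monolayers, a change of -0.31 ± 0.10 (edgeR adjusted p = 0.00842). KEAP1 averaged 136 ± 16.1 CPM in DDX4-null monolayers and 120 ± 9.89 CPM in control monolayers (0.18 ± 0.10, adjusted p = 0.116), and it passed with library totals, with chromosome medians taken out and without DDX4-null monolayer 3. RNA levels of these genes do not measure NRF2 protein, which is controlled by its breakdown.

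Of 40 other NRF2 target genes tested, 12 rose and 16 fell in monolayers, with a median of -0.14, and these shares are near those over all genes. UGDH, which makes UDP-glucuronic acid, averaged 37.7 ± 4.84 CPM in DDX4-null monolayers and 94.4 ± 10.7 CPM in control monolayers, a log2 change of -1.32 ± 0.12 (edgeR adjusted p = 6.6e-09). ME1, a cytosolic source of NADPH, averaged 69.5 ± 8.68 CPM in DDX4-null monolayers and 157 ± 6.52 CPM in control monolayers, or -1.18 ± 0.10 (adjusted p = 7.3e-09). SPP1, which encodes the secreted protein osteopontin, averaged 7.81 ± 1.13 CPM in DDX4-null monolayers and had 0 counts in each control monolayer.

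Of 13 other aldehyde dehydrogenases 4 rose and 5 fell in DDX4-null monolayers (median -0.14). The mitochondrial enzymes ALDH1B1 (1.14 ± 0.10) and ALDH5A1 (1.15 ± 0.12), the succinate semialdehyde dehydrogenase, rose, while ALDH6A1 (-1.16 ± 0.13), an enzyme of valine breakdown, fell. The median log2 change of chromosome 14, which carries ALDH6A1, was -0.47. Over the alternative fits ALDH6A1 ran from -1.27 to -0.69 and passed in each. Among 4 other aldo-keto reductases tested, AKR1B1, the aldose reductase, fell and none rose. It averaged 0.609 ± 0.302 CPM in DDX4-null monolayers and 3.78 ± 1.21 CPM in control monolayers. AKR1B1 lies on chromosome 7, with a median log2 change of -0.73. It ran from -2.96 to -1.87 over the alternative fits that tested it and passed in each.

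Of 16 other glutathione genes 1 rose and 4 fell in DDX4-null monolayers (median -0.06). CTH, which makes cysteine from cystathionine, fell to 34.2 ± 2.15 CPM in DDX4-null monolayers, against 146.5 ± 14.6 CPM in control monolayers, a log2 change of -2.10 ± 0.10 (edgeR adjusted p = 9.5e-13). SLC3A2, the heavy chain that pairs with SLC7A11, fell by 0.43 on the log2 scale, but was at -0.16 and did not pass with chromosome medians taken out (edgeR adjusted p = 0.212). Of 11 thioredoxin genes 5 rose and 2 fell (median 0.22), and TXNRD2, the mitochondrial relative of TXNRD1, averaged 43.0 ± 3.42 CPM in DDX4-null monolayers and 15.3 ± 1.87 CPM in control monolayers, a rise of 1.49 ± 0.11. Of 11 heme and iron genes 1 rose and 8 fell (median -0.93). FTH1, the ferritin heavy chain, averaged 9167 ± 359.5 CPM in DDX4-null monolayers and 25080 ± 3843 CPM in control monolayers (-1.45 ± 0.13). BLVRB, a biliverdin reductase, fell by 1.06 and the iron importer SLC11A2 by 0.93.

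**Figure D5:**
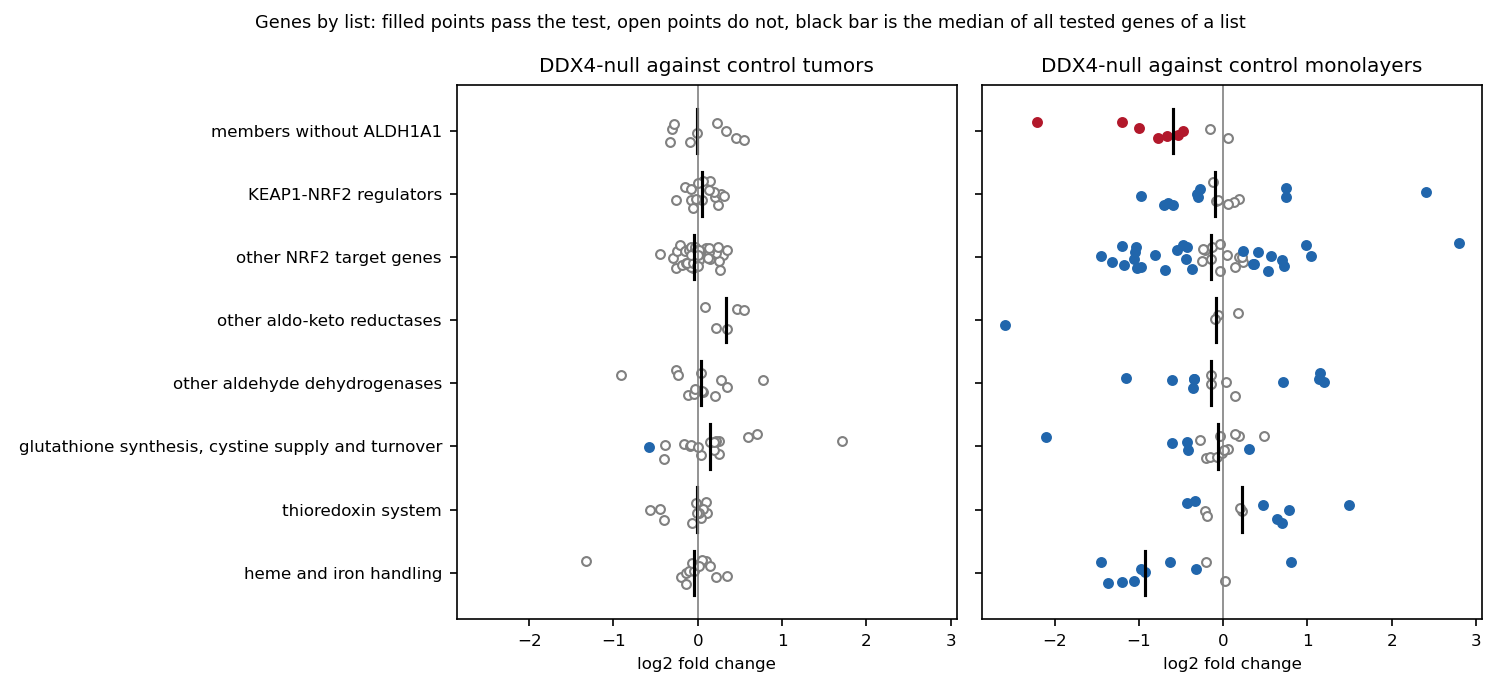
Log2 fold change of DDX4-null against control libraries (horizontal axes) for the members and for 7 lists of related genes, tumors left and monolayers right, 1 point per gene, filled where the edgeR adjusted p was under 0.05, with black bars at the median of all tested genes of a list. Members in monolayers have a median of -0.60 and heme and iron genes of -0.93, and in tumors 1 point is filled, GSS at -0.58; ALDH1A1 and SPP1, at 0 counts in control monolayers, have no point in monolayers.

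In DDX4-null against control tumors 1 gene of these 7 lists passed, GSS, the glutathione synthetase gene, among 17 other glutathione genes. It averaged 58.8 ± 6.03 CPM in DDX4-null tumors and 87.7 ± 11.1 CPM in control tumors, a log2 change of -0.58 ± 0.11 (edgeR adjusted p = 0.0285). The call rested on single libraries: it was lost without DDX4-null tumor 2 (adjusted p = 0.0628) or 3 (0.0666), without control tumor 2 (0.0897) or 3 (0.11), and with chromosome medians taken out (-0.39, adjusted p = 0.1). NFE2L2 averaged 64.9 ± 4.36 CPM in DDX4-null tumors and 57.0 ± 4.28 CPM in control tumors and did not pass (edgeR adjusted p = 0.234).

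In control tumors against control monolayers, where 33.9% of all tested genes rose and 31.0% fell, 2 of 16 regulators rose and 10 fell (median -0.40), and 9 of 38 other NRF2 targets rose and 21 fell (-0.47). NFE2L2 itself averaged 57.0 ± 4.28 CPM in control tumors and 156 ± 13.9 CPM in control monolayers, a log2 change of -1.45 ± 0.09 (edgeR adjusted p = 6.7e-10), and SQSTM1, whose protein p62 sequesters KEAP1, fell by 2.06. FTH1 averaged 2339 ± 196 CPM in control tumors and 25080 ± 3843 CPM in control monolayers. Of 13 other aldehyde dehydrogenases 1 rose and 7 fell, with ALDH1A3, a retinaldehyde dehydrogenase, at 153 ± 7.23 CPM in control tumors and 1411 ± 47.8 CPM in control monolayers. Of 17 other glutathione genes 4 rose and 10 fell, among them CBS (-3.68 ± 0.14), CTH (-1.94 ± 0.10) and CHAC1 (-3.43 ± 0.12), which make cystathionine, make cysteine and break down glutathione. Other aldo-keto reductases had 2 up and 3 down of 6, the thioredoxin list 3 up and 4 down of 11, and heme and iron genes 3 up and 8 down of 12.

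In DDX4-null tumors against DDX4-null monolayers, where 34.6% of all tested genes rose and 35.3% fell, 3 of 16 regulators rose and 9 fell, and 13 of 40 other NRF2 targets rose and 19 fell. NFE2L2 averaged 64.9 ± 4.36 CPM in DDX4-null tumors and 126 ± 8.83 CPM in DDX4-null monolayers (-0.94 ± 0.10). The repressor gene BACH1 fell by 1.58, with 77.8 ± 5.33 CPM in DDX4-null tumors and 234 ± 39.2 CPM in DDX4-null monolayers. ALDH1A3 fell by 2.98 and CBS by 3.26, and AKR1B1 rose by 2.97 ± 0.48. Counts up and down were 3 and 2 of 6 other aldo-keto reductases, 3 and 7 of 13 other aldehyde dehydrogenases, 4 and 7 of 17 glutathione genes, 0 and 6 of 11 thioredoxin genes, and 5 and 4 of 12 heme and iron genes.

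The change between DDX4-null and control libraries differed between tumors and monolayers for 52.8% of 13603 genes in edgeR. Of all genes 26.0% were more positive in tumors and 26.8% more negative. Of 16 regulators 9 passed, 6 more positive in tumors and 3 more negative. Of 40 other NRF2 targets 23 passed, 14 and 9, and the share passing in both lists was near that over all genes. The counts were 2 and 0 of 6 other aldo-keto reductases, 4 and 3 of 13 other aldehyde dehydrogenases, 5 and 1 of 17 glutathione genes, 1 and 4 of 11 thioredoxin genes, and 8 and 2 of 13 heme and iron genes. CTH had a difference of 2.31 ± 0.16, UGDH of 1.34 ± 0.15 and FTH1 of 1.80 ± 0.18, and the ferritin light chain gene FTL one of 1.42 ± 0.19 (edgeR adjusted p = 2.6e-06). TXNRD2 (-1.89 ± 0.17) and BACH2 (-2.10 ± 0.18) differed in the other direction.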

How the data were processed

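Poly(A) RNA of 16 libraries was prepared with a stranded mRNA kit, per the labels' protocols. The values are the authors' deposited raw read counts per gene, with Trimmomatic 0.39, STAR 2.7.10a, featureCounts 2.0.3 and build GRCh37 named per the submitters' processing notes. The labels give neither the strand setting nor the annotation of the counting, and whether reads of the host were removed is not stated either. Ensembl IDs were matched to symbols with gene name tables (19446 IDs) and GENCODE v29 (65). The 845 IDs without a symbol held 0.211% to 0.31% of counts.

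Groups followed the labels. Each contrast was fitted across all genes with edgeR 4.0.16 (R 4.3.3, limma 3.58.1): TMM, filterByExpr, quasi-likelihood F test, Benjamini-Hochberg adjustment at 0.05. The 2 groups compared entered each fit, and all 16 libraries the test of the difference. SE was the log2 change over the square root of F. Alternatives were DESeq2 1.42.0, other size factors, other filters, a replicate block, the model of all libraries, chromosome medians taken out, AKR1C2 counts added to AKR1C1 (chosen after seeing the data) and each library left out. The fit was also run on simulated counts in which only a small part of the genes changed. That run does not cover comparisons in which most genes passed. All replicate pairs differed by more than sampling noise. The floor of 3 counts over a group and the counting intervals cover counting error only.

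All 10 genes were named. Of other lists, up to 3 called genes with the smallest p per list and comparison, at 1 CPM or more, could be named. The members and lists were chosen with earlier results of these data known.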

Additional observations from a re-analysis of the deposited data

Results flagged for a closer look

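For 6 of the 10 genes the change between DDX4-null and control libraries differed between tumors and monolayers by a direct test (edgeR, all 16 libraries), as the log2 change in tumors minus that in monolayers. The differences were 0.86 for ALDH3A1, 2.67 for AKR1C1, 0.99 for AKR1C3, 1.21 for HMOX1 and 0.72 for TXNRD1. ALDH1A1 had -6.93, a size that depends on the prior count in the control monolayers, where it had 0 counts. Over all 13603 genes 52.8% passed this test.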

How the results depend on the processing

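No called value of the 10 genes changed sign under any alternative run. Members called higher in DDX4-null monolayers numbered 0 with a filter at 5 CPM, which removed ALDH1A1, as did those called lower in the difference between settings (0). In DDX4-null against control tumors 1 member, HMOX1, was called higher with DESeq2, with a replicate block and in the model of all 16 libraries, against 0. In control tumors against control monolayers 2 were called higher with no filter and in the model of all 16 libraries, where ALDH1A1 was tested, and 0 to 1 with 1 library left out. All genes called in tumors numbered 127 higher and 143 lower, against 481 and 399 with DESeq2, 258 higher with the replicate block, 470 and 338 in the model of all 16 libraries and 110 and 84 with chromosome medians taken out. With 1 library left out they ran from 11 to 182 higher and from 15 to 131 lower, lowest without control tumor 3.

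Same-numbered replicates correlated at 0.006 to 0.214 in tumors and -0.315 to 0.557 in monolayers, so the numbers were not taken as pairs. With the replicate block HMOX1 in tumors changed by 0.55 (edgeR adjusted p = 0.0316), and over its alternatives its adjusted p ran from 0.0206 to 0.245. Depth limits ALDH1A1 and ALDH3A1 in tumors.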
